A study of Mus musculus with 9 samples.

Results

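The 10 genes described here encode the receptor for interleukin 2 (IL-2), its kinases, the STAT5 transcription factors and 3 feedback inhibitors. They were taken by symbol (Il2ra, Il2rb, Il2rg, Jak1, Jak3, Stat5a, Stat5b, Socs1, Socs2 and Cish) from the 49510 genes of the deposited count table, and all 10 passed the low-count filter that left 16609 genes. RNA was sequenced from regulatory T cells (Tregs) of Foxp3-GFP mice, whose green reporter marks cells that express Foxp3, the transcription factor that defines the lineage. The 3 heart libraries came from Tregs of the injured heart, the 3 MLN libraries from Tregs of the mediastinal lymph node, which drains the heart, and the 3 spleen libraries from Tregs of the spleen. All groups share the same strain, an age of 8 weeks and ischemia/reperfusion injury 3 days earlier, so no uninjured or Foxp3-negative group stands beside them. Sorting used magnetic beads first and flow cytometry second, and cDNA was made with a kit for very small amounts of RNA. Whether the libraries of an organ are different animals or pools is not in the labels. A p-value here is therefore set by the spread among libraries of an organ, which may include technical spread. The main fit pools that spread over the 3 organs.

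IL-2 binds a receptor of an alpha chain (CD25, encoded by Il2ra), a beta chain (Il2rb) and the common gamma chain (Il2rg). The alpha chain raises affinity, while the beta and gamma chains carry the kinases JAK1 and JAK3, which phosphorylate STAT5A and STAT5B, and STAT5 dimers then enter the nucleus and bind DNA. Tregs carry much CD25, make little IL-2 of their own and depend on IL-2 from other cells, and STAT5 sustains their Foxp3. SOCS1, SOCS2 and CIS (encoded by Cish) are induced by such signals and dampen them.

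Total counts ranged from 156194012 to 267520538 per library, and levels are given as CPM, each count relative to its library's scaled total. The pan-T list of 11 T cell genes held 0.224% to 0.449% of counts in heart, 0.631% to 0.683% in MLN and 0.501% to 0.806% in spleen. The 12 macrophage and monocyte markers held 0.644% to 0.888% in heart, 0.0237% to 0.0772% in MLN and 0.0957% to 0.295% in spleen, and 10 fibroblast markers held 0.284% to 1.47% in heart, against at most 0.00372% in MLN and 0.000842% in spleen. Mast cell markers held 0.621%, 0.596% and 0.0041% in heart libraries 1, 2 and 3, and at most 0.00661% in MLN and 0.0045% in spleen. B and plasma cell markers held 0.00584% to 0.0204% in heart, 0.104% to 0.324% in MLN and 0.593% to 1.32% in spleen. The 12 Treg markers, with Il2ra left out, held 0.147% to 0.224% in heart, 0.334% to 0.521% in MLN and 0.396% to 0.454% in spleen, and none was without counts in an organ. Foxp3 itself stood at 8.77, 38.0 and 0.24 CPM in heart, at 42.4, 41.8 and 46.3 CPM in MLN and at 31.2, 32.6 and 187 CPM in spleen, so heart library 3 had almost none of the transcript that the sort selects for. The part of these cell mixtures in the results below was not tested, and in bulk RNA fewer cells of a type and less RNA per cell cannot be told apart. Heart 2, MLN 3 and spleen 3 stood apart within their organs, with B2m at 1.25%, 1.55% and 1.2% of counts, against 2.39% to 2.71% in the other 6 libraries.

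The members covered a wide range of abundance. Levels were divided by exon length, taken as all annotated exons of a gene merged. This length can exceed that of a single transcript, by unequal amounts per gene, which limits the order between genes. The common gamma chain Il2rg was the most abundant, at a mean of 153 CPM per kb over the 9 libraries. It was ahead of Jak1 at 69.3 and Il2ra at 64.2 CPM per kb. Il2rb followed at 47.6, with 218 in spleen 3, and Stat5b at 19.1 CPM per kb. The feedback inhibitors had close means over the 9 libraries, with Cish at 3.77, Socs1 at 3.39 and Socs2 at 3.14 CPM per kb. Stat5a at 1.93 and Jak3 at 1.68 CPM per kb had the lowest means. The order of these means did not hold in each organ. In MLN Il2ra averaged 96.8 and Jak1 65.7 CPM per kb. Socs2 and Cish averaged 5.46 and 3.42 in MLN but 1.57 and 4.97 in spleen. Both kinases and both STAT5 genes were therefore unequal, since Jak1 exceeded Jak3 and Stat5b exceeded Stat5a per kb in all 9 libraries. Stat5a and Stat5b are close paralogs and neighbours on chromosome 11, and how the authors' counting treated reads that match both is not given in the sources used here, so their split is uncertain.

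**Figure D1:**
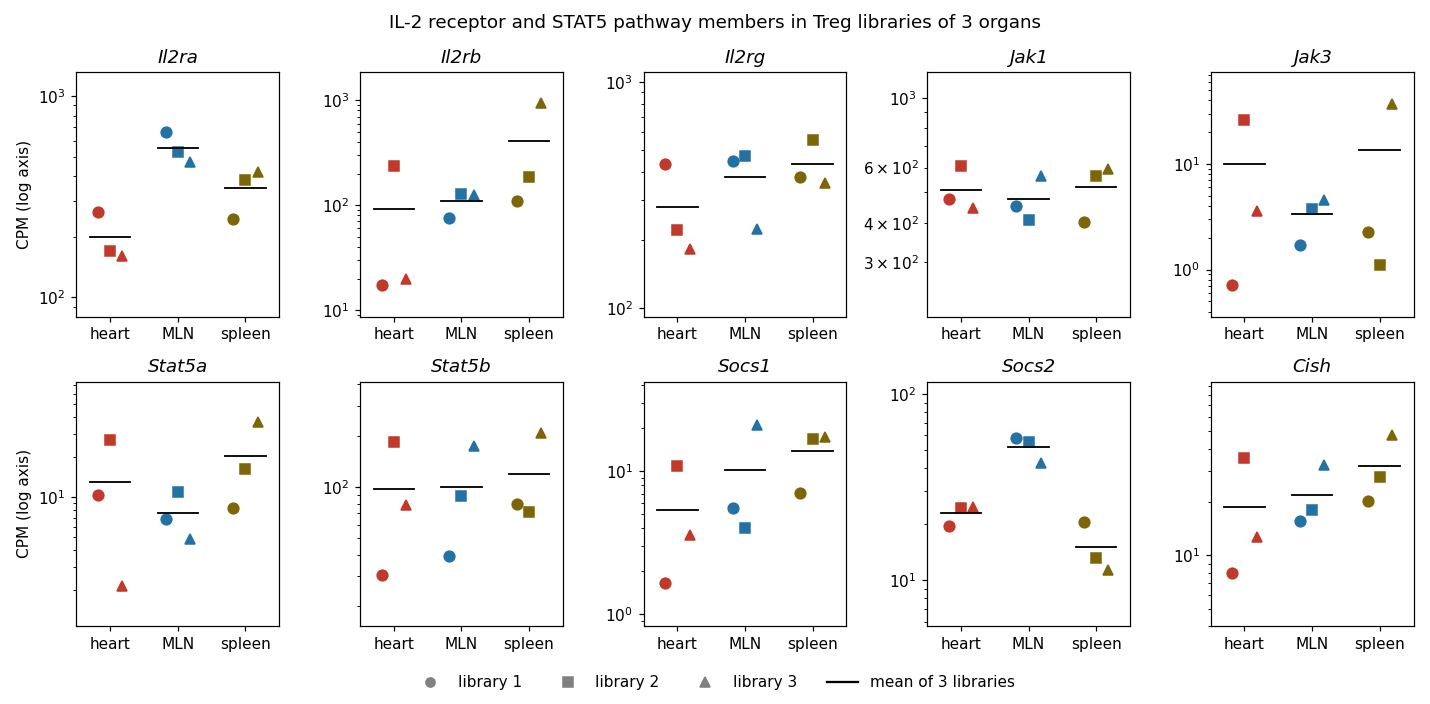
Level of each of the 10 members (CPM, log axis, scaled separately per gene) in heart, MLN and spleen libraries. Points are libraries 1 to 3 and bars the mean of 3. Il2ra and Socs2 lie above both other organs in every MLN library, while Il2rb, Jak3 and Stat5a are carried by heart 2 or spleen 3.

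No member passed the test in any comparison of organs. By edgeR's quasi-likelihood test with Benjamini-Hochberg adjustment over all genes, 0 of 10 members were called between heart and spleen, where 0.789% of all genes were called, and 0 of 10 between heart and MLN, where 1.38% of all genes were. Between MLN and spleen 0 of 10 members and 0% of all genes were called, and in the joint test for any difference among organs 0 of 10 members against 1.78% of all genes. At an unadjusted p under 0.05, 1 member passed between heart and spleen (13.6% of all genes), 2 between heart and MLN (15.5%), 1 between MLN and spleen (5.75%) and 2 in the joint test (12.9%). With 10 members, each of these counts is within a single gene or so of the share of all genes. DESeq2 called 0 members between heart and spleen, 2 between heart and MLN (Il2ra and Socs2), 1 between MLN and spleen (Socs2) and 2 in the joint test, while limma-voom called 0, 1 (Il2ra), 0 and 1 (Socs2).

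By sign, 9 of 10 members had a log2 change below 0 in heart against spleen, where 49% of all genes did, with a median of -0.64 against 0.02 over all genes. In heart against MLN 7 of 10 were below 0 (46.5% of all genes), with a median of -0.25 against 0.12. In MLN against spleen 8 of 10 were below 0 (49.8% of all genes), with a median of -0.34 against 0. These tallies depend on the scale: relative to the summed pan-T counts of the same library, a measure taken up below, 5 of 10 members were below 0 in heart against spleen (median 0.03), 4 of 10 in heart against MLN (median 0.36) and 8 of 10 in MLN against spleen (median -0.46). In CPM the pan-T genes themselves were below 0 in 10 of 11 in heart against spleen (median -1.06) and in 8 of 11 in heart against MLN (median -0.69). The comparisons share libraries and are not independent of each other.

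Il2ra, the CD25 chain, lies on chromosome 2 (11642807 to 11693193 of GRCm38, plus strand; the assembly that mm10 names). It stood at 267, 169 and 160.5 CPM in heart libraries 1, 2 and 3, at 660.1, 527 and 472 CPM in MLN and at 245, 383 and 419 CPM in spleen. Every heart library lay below every MLN library and every MLN library lay above every spleen library, while heart 1 lay above spleen 1. The means were 199 ± 59.1 CPM in heart, 553 ± 96.7 CPM in MLN and 349 ± 91.9 CPM in spleen (SD, n = 3 each). Heart was 2.78-fold below MLN, a log2 change of -1.48 (SE 0.35, 95% interval -2.28 to -0.67), with an unadjusted p of 0.00264 and an adjusted p of 0.0825 by edgeR, which misses the threshold of 0.05. Heart against spleen gave -0.81 (SE 0.35, interval -1.60 to -0.02, adjusted p 0.357) and MLN against spleen 0.66 (SE 0.35, interval -0.13 to 1.45, adjusted p 0.872). The order was thus MLN, spleen, heart, and only the step between MLN and heart had an interval well clear of 0. Il2ra kept its sign in all 17 alternatives of each comparison, and without heart 2, MLN 3 and spleen 3 together heart against MLN was -1.46 with an adjusted p of 0.199. Without heart 3, the library with almost no Foxp3, it was -1.35 (adjusted p 0.237), and over all alternatives its adjusted p ran from 0.00293 (DESeq2) to 0.27.

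The 2 signalling chains differed in how far libraries of an organ departed from each other. Il2rg, the gamma chain shared with the receptors for IL-4, IL-7, IL-9, IL-15 and IL-21 (chromosome X, 101264378 to 101268255, minus strand), stood at 435, 221 and 183 CPM in heart, at 449, 472 and 223 CPM in MLN and at 381, 555 and 359 CPM in spleen. The organs overlapped in every comparison, with log2 changes of -0.63 in heart against spleen (interval -1.65 to 0.40), -0.45 in heart against MLN (-1.47 to 0.57) and -0.18 in MLN against spleen (-1.20 to 0.84). A same-strand gene model, Gm20489, shares 728 exon bases with Il2rg and had 0 counts in all libraries. Il2rb, the beta chain that also serves the IL-15 receptor (chromosome 15, 78479256 to 78495271, minus strand), stood at 17.4, 237 and 19.6 CPM in heart, at 75.5, 129 and 125 CPM in MLN and at 111, 187 and 933 CPM in spleen. Heart libraries 1 and 3 were the lowest of all 9, yet heart 2 exceeded every library except spleen 3. The log2 change of Il2rb in heart against spleen was -2.17 (interval -4.82 to 0.48, adjusted p 0.493, edgeR), and it was -4.47 without heart 2 and -0.70 without spleen 3. In heart against MLN it was -0.27 (interval -2.81 to 2.28, adjusted p 0.964), -2.57 without heart 2 and 0.21 without heart 3. In MLN against spleen it was -1.90 (interval -4.53 to 0.73, adjusted p 1), and -0.43 without spleen 3.

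**Figure D2:**
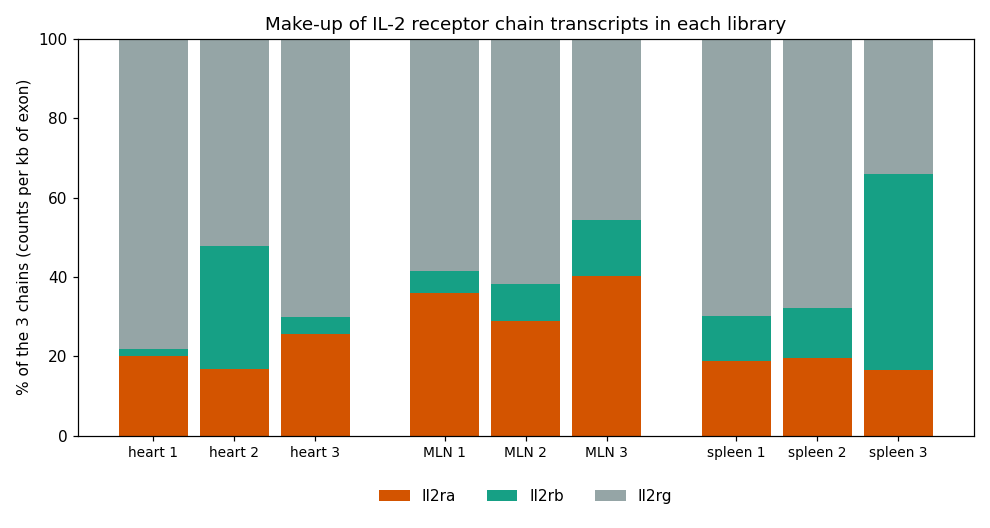
Make-up of the IL-2 receptor chain transcripts in each library: Il2ra, Il2rb and Il2rg as a percent of their sum, in counts per kb of exon. Il2ra takes 28.8% to 40.2% in MLN and 16.6% to 25.7% in the other 6 libraries. Il2rb has its highest shares in heart 2 (31.2%) and spleen 3 (49.3%).

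Within a library the proportions of the 3 chains do not depend on scaling to the library total. Il2ra made up 20%, 16.7% and 25.7% of the chains per kb in heart, 36%, 28.8% and 40.2% in MLN and 18.8%, 19.5% and 16.6% in spleen. The MLN libraries were separate from the other organs, which overlapped. The share of Il2ra was 14.2 points lower in heart than in MLN and 16.7 points higher in MLN than in spleen, each with an exact permutation p of 0.1, the smallest that 3 against 3 libraries allow (two-sided, 0.45 after adjustment over 9 tests). Heart and spleen differed by 2.5 points (exact permutation p 0.4). Without heart 3 the difference from MLN was -16.7 points. Il2rb ranged from 1.74% to 31.2% of the chains in heart, from 5.48% to 14.2% in MLN and from 11.3% to 49.3% in spleen. Its highest shares were those of heart 2 and spleen 3, where the gamma chain made up 52.2% and 34.1%, against 58.6% to 78.2% in the libraries other than these and MLN 3 (45.5%).

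Jak1, the kinase bound to the beta chain and to several other cytokine receptors, was the most even member (chromosome 4, 101152367 to 101265282, minus strand). It stood at 476, 604.5 and 447 CPM in heart, at 453, 408 and 564 CPM in MLN and at 403, 562 and 593 CPM in spleen. All 3 organs overlapped. The log2 changes were -0.03 in heart against spleen (interval -0.71 to 0.65), 0.10 in heart against MLN (-0.58 to 0.78) and -0.13 in MLN against spleen (-0.81 to 0.55). The sign of the heart against spleen value turned to 0.03 with another scaling (RLE).

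Jak3, the kinase bound to the gamma chain (chromosome 8, 71676296 to 71690575, plus strand), was low in most libraries and high in 2 of them. It stood at 0.718, 25.9 and 3.6 CPM in heart, at 1.72, 3.78 and 4.55 CPM in MLN and at 2.26, 1.11 and 37.3 CPM in spleen. Only heart 2 and spleen 3 exceeded 5 CPM, and the organs overlapped in every comparison. The log2 change in heart against spleen was -0.43 (interval -3.94 to 3.09), and it was -2.65 without heart 2 and 2.58 without spleen 3. In heart against MLN it was 1.59 (-2.01 to 5.18), and -0.64 without heart 2, while in MLN against spleen it was -2.02 (-5.66 to 1.63), and 0.99 without spleen 3. The sign of each Jak3 comparison thus turned with a single library. The same-strand gene Insl3 shares 404 exon bases with it and had counts equal to 2.37% of those of Jak3.

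The STAT5 genes had the same 2 libraries at their high end. Stat5b (chromosome 11, 100780731 to 100850724, minus strand) stood at 30.6, 184 and 78.5 CPM in heart, at 39.5, 88.3 and 173 CPM in MLN and at 79.2, 71.3 and 207 CPM in spleen. Stat5a (chromosome 11, 100859351 to 100885169, plus strand) stood at 10.3, 26.9 and 2.14 CPM in heart, at 6.9, 10.96 and 4.82 CPM in MLN and at 8.31, 16.2 and 37.1 CPM in spleen. Organs overlapped for both genes, and the organ means of Stat5b lay at 97.9 ± 78.7 CPM in heart, 100.3 ± 67.7 CPM in MLN and 119 ± 76.4 CPM in spleen (SD, n = 3 each). The log2 changes of Stat5b were -0.29 in heart against spleen (interval -2.06 to 1.49), -0.04 in heart against MLN (-1.81 to 1.74; 0.06 with RLE scaling) and -0.25 in MLN against spleen (-2.02 to 1.52). Those of Stat5a were -0.65 (-2.82 to 1.52), 0.79 (-1.38 to 2.97) and -1.44 (-3.65 to 0.77) in the same order of comparisons, and without spleen 3, MLN 3 and heart 2 together its heart against MLN value was -0.51. The intervals span several-fold differences in either direction, so at this spread smaller organ differences of the STAT5 genes were not detectable. Stat5a shares 72 exon bases with Stat3 on the opposite strand, and Stat3 had 689% of the counts of Stat5a.

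Set against the mean of the other libraries of its organ, heart 2 had 12.8 times the Il2rb, 12.0 times the Jak3, 4.31 times the Stat5a, 4.17 times the Socs1, 3.43 times the Cish and 3.38 times the Stat5b, where the median ratio of 12721 genes was 0.965. Ratios above those of Il2rb and Jak3 were found for 2.9% and 3.18% of genes. For Stat5a, Socs1, Cish and Stat5b the shares were 11.5%, 11.9%, 15.2% and 15.4%. Spleen 3 had 22.1 times the Jak3 (2.02% of 11958 genes were higher), 6.27 times the Il2rb (8.2%), 3.02 times the Stat5a (19.4%) and 2.76 times the Stat5b (21.2%), against a median ratio of 1.02. MLN 3 had 4.47 times the Socs1 (6.99% of genes were higher) and 2.71 times the Stat5b (14.2%), against a median ratio of 0.923. Il2ra, Il2rg, Jak1 and Socs2 were within 0.485 to 1.34 times the mean of the other libraries in all 3 of these. The labels name no batch, and why these libraries differ was not tested.

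**Figure D3:**
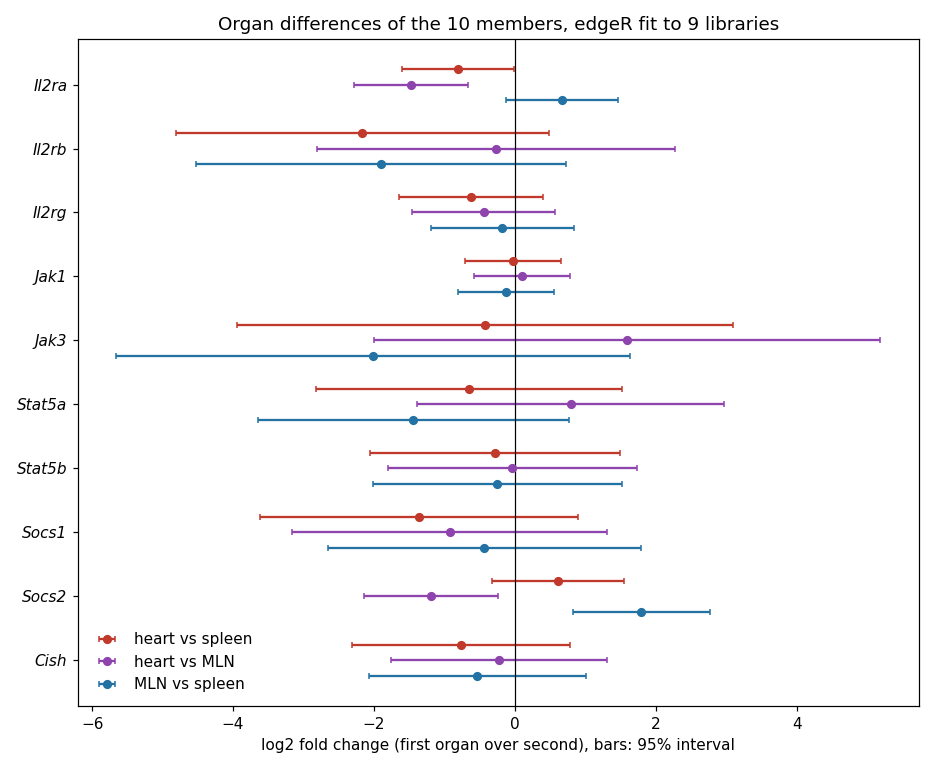
Log2 fold changes of the 10 members for heart against spleen, heart against MLN and MLN against spleen (points) with 95% intervals (bars), from 1 edgeR fit to 9 libraries. Il2ra and Socs2 have intervals that leave out 0 in heart against MLN, Socs2 also in MLN against spleen and Il2ra just so in heart against spleen, and no point passes the adjusted threshold.

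Among the feedback inhibitors, Socs2, whose protein is best known as a brake on growth hormone signalling, separated the MLN from both other organs (chromosome 10, 95385362 to 95417180, minus strand). It stood at 19.6, 24.3 and 24.7 CPM in heart, at 58.4, 55.0 and 42.7 CPM in MLN and at 20.5, 13.1 and 11.3 CPM in spleen. All MLN libraries lay above all others, and heart and spleen overlapped. The means were 22.8 ± 2.83 CPM in heart, 52.0 ± 8.22 CPM in MLN and 15 ± 4.87 CPM in spleen (SD, n = 3 each). MLN against spleen gave a 3.47-fold difference, a log2 change of 1.79 (SE 0.42, interval 0.83 to 2.76), which ranked 47 of 16609 genes by p (0.00246 unadjusted) and had an adjusted p of 0.839 by edgeR. Heart against MLN gave -1.19 (SE 0.42, interval -2.14 to -0.24, adjusted p 0.208), and heart against spleen 0.61 (SE 0.41, interval -0.33 to 1.55, adjusted p 0.67). The sign of each of these 3 changes was the same in all 17 alternatives, and the adjusted p for MLN against spleen ran from 7.12e-06 (DESeq2) to 1 among them. Without heart 3, heart against MLN was -1.25 (adjusted p 0.327).

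Il2ra and Socs2 were the only members whose libraries did not overlap between organs. Both lay lower in heart than in MLN in all libraries, 2 of 10 members where 11.2% of all genes did so, and both lay higher in MLN than in spleen in all libraries, 2 of 10 where 4.52% of all genes did so. None of the 10 lay lower in MLN than in spleen in all libraries (4.56% of all genes). Between heart and spleen 0 of 10 members were separate, where 12.4% of all genes lay higher and 6.9% lower in all heart libraries.

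Socs1, an inhibitor of JAK kinases that is essential to Treg stability in mice (chromosome 16, 10782240 to 10785536, minus strand), was near 10 CPM or below in most libraries. It stood at 1.65, 10.9 and 3.6 CPM in heart, at 5.51, 4.01 and 21.3 CPM in MLN and at 7.11, 17.0 and 17.5 CPM in spleen. The organs overlapped. The log2 changes were -1.36 in heart against spleen (interval -3.61 to 0.89), -0.93 in heart against MLN (-3.16 to 1.30; 0.18 without MLN 3) and -0.43 in MLN against spleen (-2.65 to 1.78).

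Cish, whose product CIS competes with STAT5 for the activated receptor (chromosome 9, 107296026 to 107302784, plus strand), stood at 8.0, 35.5 and 12.7 CPM in heart, at 15.6, 17.97 and 32.3 CPM in MLN and at 20.2, 27.8 and 47.7 CPM in spleen. In each organ the library that stands apart had the most Cish, and the organs overlapped. The log2 changes were -0.77 in heart against spleen (interval -2.31 to 0.78), -0.23 in heart against MLN (-1.77 to 1.31; 0.16 without MLN 3) and -0.54 in MLN against spleen (-2.08 to 1.00). Opposite-strand models Gm17040 and Gm17041 share 261 and 479 exon bases with Cish and had 4.61% and 0.0757% of its counts, and where strand is not used such reads cannot be told apart.

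Cish is the classical STAT5 target, and its promoter is shown because it alone among those matched holds the STAT motif. Promoters of 250 bases before to 50 after the start were matched by symbol for 8 of the 10 members (10 promoters; RefSeq, GRCm38.p6); Il2rb and Socs2 were not matched. They were searched for TTCNNNGAA, which reads the same on both strands. The Cish promoter (chr9:107296409-107296708, plus strand) holds it in 2 copies, TTCCTGGAA at bases 251 to 259 and TTCTTGGAA at bases 262 to 270, shown in capitals below, and the Il2ra promoter (chr2:11642542-11642841, plus strand), shown for comparison as that of the alpha chain, holds 0. Both run 5′ to 3′.
Cish: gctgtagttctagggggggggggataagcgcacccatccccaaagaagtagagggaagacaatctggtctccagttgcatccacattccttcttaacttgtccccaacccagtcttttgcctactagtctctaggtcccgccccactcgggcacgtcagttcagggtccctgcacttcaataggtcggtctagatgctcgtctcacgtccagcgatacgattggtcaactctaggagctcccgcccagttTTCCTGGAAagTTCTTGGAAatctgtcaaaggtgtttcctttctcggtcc
Il2ra: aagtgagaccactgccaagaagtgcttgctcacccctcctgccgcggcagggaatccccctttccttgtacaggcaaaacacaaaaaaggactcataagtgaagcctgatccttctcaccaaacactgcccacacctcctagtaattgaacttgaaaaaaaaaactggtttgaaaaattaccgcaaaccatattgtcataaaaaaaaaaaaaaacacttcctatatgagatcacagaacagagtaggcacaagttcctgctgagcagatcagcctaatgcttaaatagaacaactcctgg
The other 8 member promoters hold 0 copies as well. Both Cish copies lie after the start, with their first bases at positions 1 and 12 from it. Of all 32851 promoters of the same length, 8.3% hold the motif and 0.457% hold 2 or more copies. The share of member promoters with the motif, 1 of 10, is near that of all promoters. Sequence outside these windows was not searched. The match is a description of these letters in this window and does not show that STAT5 was bound in these cells.

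**Figure D4:**
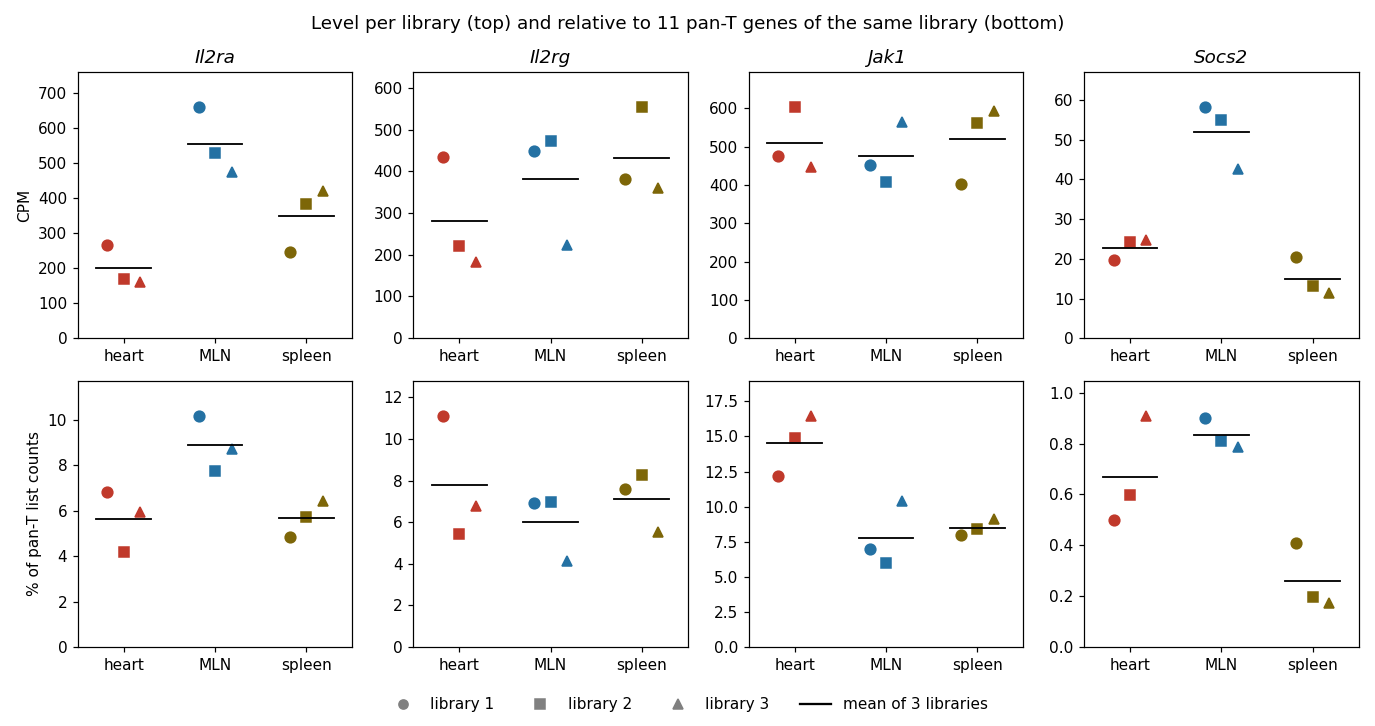
Il2ra, Il2rg, Jak1 and Socs2 in each library as CPM (top) and as a percent of the summed counts of 11 pan-T genes in the same library (bottom). Bars are means of 3 libraries. Heart and spleen overlap for Il2ra on both scales, with means of 199 and 349 CPM but 5.64% and 5.67% of pan-T counts. Relative to pan-T counts Jak1 is higher in every heart library than in every other library. The summed pan-T level is itself lower in every heart library than in every other library.

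Because pan-T genes held fewer of the counts in heart, members were also expressed relative to them within each library. The summed pan-T level was 3909, 4055 and 2709 CPM in heart, 6479, 6784 and 5421 CPM in MLN and 5034, 6691 and 6511 CPM in spleen. Il2ra counts equalled 6.83%, 4.17% and 5.93% of the pan-T counts in heart, 10.2%, 7.76% and 8.71% in MLN and 4.86%, 5.72% and 6.44% in spleen. On this scale heart and spleen overlapped with a log2 difference of -0.03 (exact permutation p 1), while every MLN library stayed above both. The log2 difference was -0.68 in heart against MLN and 0.65 in MLN against spleen, each with an exact permutation p of 0.1, the smallest possible (0.429 after adjustment over 30 tests). With only Cd3d, Cd3e, Cd3g and Cd247 as the base, the MLN against spleen value was 0.40.

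Jak1 behaved otherwise on this scale. It equalled 12.2%, 14.9% and 16.5% of the pan-T counts in heart, 6.99%, 6.01% and 10.4% in MLN and 8.0%, 8.4% and 9.1% in spleen, so all heart libraries lay above all others. The log2 difference was 0.76 in heart against spleen and 0.93 in heart against MLN (exact permutation p 0.1 for each), and 0.67 and 0.83 without heart 3. In CPM, however, Jak1 was even, with log2 changes of -0.03 and 0.10 in these comparisons. The summed pan-T level was at most 4055 CPM in heart and at least 5034 CPM elsewhere. Any gene that is even in CPM therefore comes out higher in heart on this scale. Jak1 is made in nearly all cell types, and the macrophage and fibroblast shares given above were likewise higher in every heart library than in every other library; their part in the ratio was not tested. The ratio was highest in heart 3, which had the lowest summed pan-T level, 2709 CPM. Mast cell markers held 0.621%, 0.596% and 0.0041% in heart 1, 2 and 3, and their part was not tested either.

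Socs2 equalled 0.501%, 0.599% and 0.91% of the pan-T counts in heart, 0.901%, 0.81% and 0.788% in MLN and 0.408%, 0.196% and 0.174% in spleen. Both heart and MLN lay above spleen in all libraries, with log2 differences of 1.43 and 1.79 (exact permutation p 0.1 each). Heart and MLN overlapped, at -0.36 (exact permutation p 0.4), through heart 3 alone. Heart 1 and heart 2 lay below every MLN library, and without heart 3 the difference was -0.60. On this scale spleen thus lay below both other organs with or without heart 3. The MLN lay above both only without heart 3, whereas in CPM it did so in all libraries. Of the other members, Stat5a alone was separate in any comparison, at -1.30 in MLN against spleen (exact permutation p 0.1). Each exact permutation p of 0.1 for Jak1, Socs2 and Stat5a was 0.429 after adjustment over 30 tests. The share of all genes that is separate on this scale was not computed, so separation here is not read as particular to the members.

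Profiles over the 9 libraries were compared with those of genes that averaged at least 10 CPM, by the mean absolute difference of centred log2(CPM + 1) values; this is a description with no test. Closest to Il2ra among 7417 genes were Znhit6 at 0.19, Eci1 at 0.21 and Trbc1, a constant segment of the T cell receptor beta chain, at 0.23, where the median gene was at 0.86. Closest to Socs2 were Psmd5 at 0.29, Ccndbp1 at 0.30 and Lzic at 0.34 (median 0.93), and closest to Jak1 were Top1, Serinc3 and Gtf2f1 at 0.14 each (median 0.69). The profiles of these members were flat or high in MLN. Jak3 was closest to Eef2 at 0.21, Tap2 at 0.30 and Gata3 at 0.32 among 7418 genes (median 1.38), and Il2rb to Bin2 at 0.38, Phgdh at 0.43 and Rgs14 at 0.44 (median 1.43). Bin2, for example, stood at 64.0, 431 and 22.9 CPM in heart, 132, 189 and 275 CPM in MLN and 161, 247 and 1075 CPM in spleen, with the same 2 libraries at the top as Il2rb. Among the members themselves the closest pairs were Socs1 and Cish at 0.33 and Stat5b and Cish at 0.36, and the farthest was Il2rb and Socs2 at 1.67.

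Of the surrounding pathway, 67 genes in 5 lists were examined and 65 tested, and 1 gene passed the test. That is 1.54% of the tested genes in heart against MLN, near the 1.38% of all genes called there, so the count does not set these lists apart. Jak2, the kinase of receptors such as those for interferon gamma, IL-3, GM-CSF and growth hormone, stood at 394, 449 and 477 CPM in heart, at 68.0, 92.4 and 115 CPM in MLN and at 151, 247 and 133 CPM in spleen. Every heart library exceeded every library of the other organs, and every MLN library lay below every spleen library. Jak2 was called higher in heart than in MLN, with a log2 change of 2.26 (SE 0.36, adjusted p 0.0333 by edgeR), and in the joint test (adjusted p 0.0413), but not in heart against spleen (1.31, adjusted p 0.121). The call in heart against MLN was lost when any single heart or MLN library was left out, with log2 changes of 2.08 to 2.45 and adjusted p-values of 0.0776 to 0.126, and over all 17 alternatives it held in 9, with adjusted p-values of 1.15e-08 (DESeq2) to 0.163. The call in the joint test was lost in 10 of 16 alternatives, among them leaving out any heart or MLN library, spleen 1 (adjusted p 0.0754) or spleen 3 (0.0537), and its adjusted p ran from 1.67e-07 to 0.202. Macrophages and mast cells also express Jak2. The macrophage marker share was, like Jak2, higher in every heart library (0.644% to 0.888%) than in every other library (at most 0.295%), and its part in the difference was not tested. Mast cell markers held 0.621%, 0.596% and 0.0041% in heart 1, 2 and 3 and 0.00661% in MLN 1, and their part was not tested either.

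**Figure D5:**
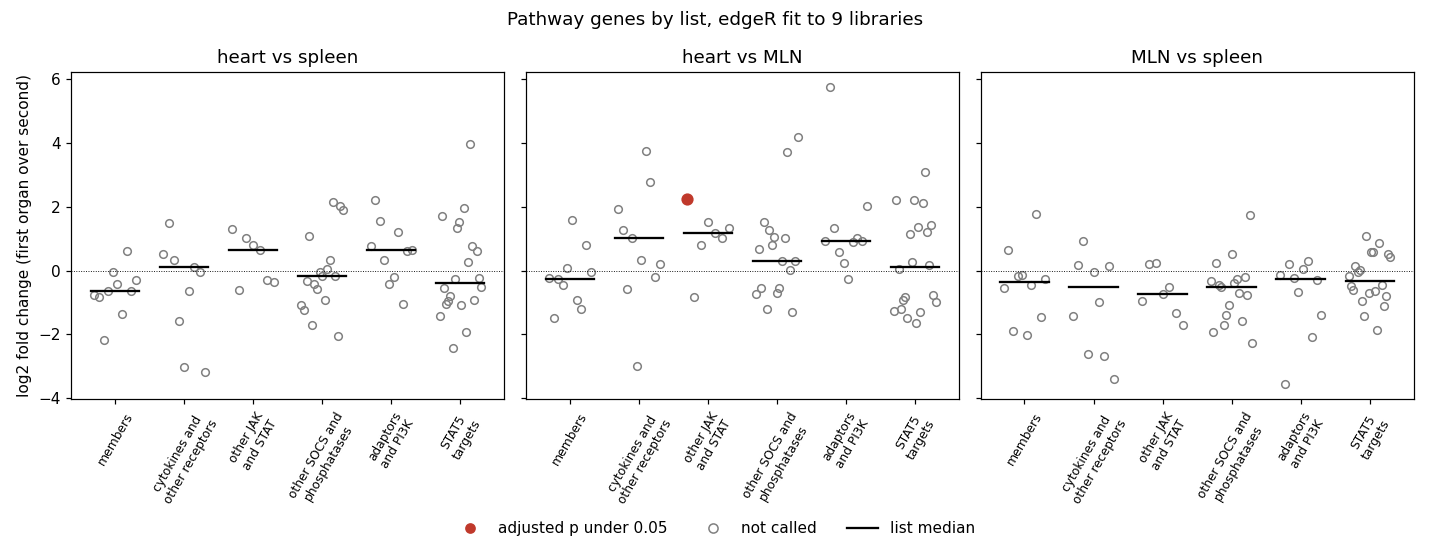
Log2 fold change of each tested gene of the members and of 5 pathway lists in the 3 comparisons, with the list median as a bar and genes with an adjusted p under 0.05 filled. Genes with no count in an organ compared are not drawn and enter the median at a bound of 3 counts per library; Jak2 in heart against MLN is the only filled point.

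The other Janus kinases and STAT factors (7 of 7 tested) had 1 gene, Jak2, called higher and 0 called lower in heart against MLN, where 1.38% of all genes were called, and 0 called in the other comparisons. Their median log2 change was 1.18 in heart against MLN, 0.66 in heart against spleen and -0.73 in MLN against spleen, beside 0.12, 0.02 and 0 over all genes. Stat3, the factor of IL-6 and IL-10 signalling, stood at 105, 291 and 57.4 CPM in heart, at 29.0, 46.4 and 80.8 CPM in MLN and at 46.3, 82.4 and 131 CPM in spleen, and organs overlapped. Stat4, the factor downstream of IL-12, stood at 1194, 483 and 801 CPM in heart, at 364, 500.4 and 227 CPM in MLN and at 424, 609.9 and 535 CPM in spleen, also with overlap.

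Of the common gamma chain cytokines and other receptor chains, 11 of 13 were tested (Il7 and Il9 were not) and 0 were called in any comparison. Their medians were 0.12 in heart against spleen, 1.04 in heart against MLN and -0.51 in MLN against spleen with genes that lack counts in an organ at their bound or, where both organs lack them, left out. Il2, the ligand itself, was scarce everywhere, at 2.05, 1.45 and 2.99 CPM in heart, 2.33, 0.829 and 0 CPM in MLN and 0.476, 12.8 and 6.11 CPM in spleen. Il7r, the IL-7 receptor chain that pairs with Il2rg, was even, at 203, 198 and 343 CPM in heart, 243, 259 and 342 CPM in MLN and 203, 315 and 242 CPM in spleen. Its intervals were -0.82 to 0.76 in heart against spleen and -0.97 to 0.60 in heart against MLN. Il15ra, which presents IL-15 to the beta and gamma chains, stood at 10.03, 4.24 and 3.26 CPM in heart, 12.7, 7.46 and 5.86 CPM in MLN and 5.01, 3.47 and 5.27 CPM in spleen, and only MLN and spleen did not overlap. Il4ra ranged from 9.54 to 158 CPM in heart, from 2.63 to 20.6 CPM in MLN and from 1.38 to 171 CPM in spleen. Tslp, a cytokine of epithelial and stromal cells, had 8.26, 0.307 and 11.5 CPM in heart and no count in MLN or spleen, and Il4 had 9.06 CPM in heart 3, at most 0.617 CPM in any other library and no count in spleen.

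Of 17 other SOCS proteins, phosphatases and inhibitors, all were tested and 0 were called in any comparison; the medians were -0.18 in heart against spleen, 0.32 in heart against MLN and -0.52 in MLN against spleen. Socs3, the inhibitor of IL-6 type receptors, stood at 10.4, 160.2 and 19.9 CPM in heart, at 3.14, 5.86 and 5.45 CPM in MLN and at 3.56, 2.34 and 37.2 CPM in spleen. All heart libraries lay above all MLN libraries (log2 change 3.72, adjusted p 0.245, edgeR), and heart and spleen overlapped. Cblb, a ubiquitin ligase that restrains T cell activation, stood at 298, 187 and 286 CPM in heart, at 183, 164 and 134 CPM in MLN and at 346, 1109 and 356 CPM in spleen. Its 3 organs were separate from each other, with spleen highest and MLN lowest, and its adjusted p-values by edgeR were 0.324 in heart against spleen, 0.628 in heart against MLN and 0.839 in MLN against spleen. Socs6 stood at 11.5, 79.1 and 45.7 CPM in heart, at 41.4, 34.5 and 34.6 CPM in MLN and at 12.7, 4.41 and 16 CPM in spleen, where only MLN and spleen were separate.

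All 10 genes of the adaptors and PI3 kinase branch were tested and 0 were called in any comparison, with medians of 0.64 in heart against spleen, 0.92 in heart against MLN and -0.27 in MLN against spleen. Gab2, an adaptor, stood at 104, 113 and 72.5 CPM in heart, 5.29, 0 and 0 CPM in MLN and 22.5, 0 and 40.0 CPM in spleen. Grb2, the adaptor that links receptors to the Ras pathway, ranged from 22.0 to 157 CPM in heart, from 22.7 to 41.2 CPM in MLN and from 13.3 to 41.6 CPM in spleen.

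Of 20 genes that STAT5 is known to regulate in T cells, all were tested and 0 were called in any comparison; the medians were -0.40 in heart against spleen, 0.11 in heart against MLN and -0.31 in MLN against spleen. Bcl2, the survival factor that IL-2 and IL-7 signals maintain, stood at 223, 245 and 283 CPM in heart, at 609.4, 563 and 634 CPM in MLN and at 443, 628 and 955 CPM in spleen. Every heart library lay below every other library, at log2 changes of -1.43 in heart against spleen (SE 0.34, adjusted p 0.0934, edgeR) and -1.27 in heart against MLN (SE 0.34, adjusted p 0.107). Mcl1, its relative and also a survival factor, lay the other way, at 54.3, 120.2 and 114 CPM in heart, 32.1, 36.4 and 43.9 CPM in MLN and 22.8, 14.7 and 37.1 CPM in spleen. Its log2 changes were 1.95 in heart against spleen (adjusted p 0.108) and 1.36 in heart against MLN (adjusted p 0.212). In CPM the values of these survival genes therefore stood in opposite directions in heart, neither past the threshold. The summed pan-T level was also lower in every heart library. These 2 genes were not expressed relative to it, so whether the contrast holds on that scale was not tested. Il10, an anti-inflammatory cytokine, stood at 688, 315 and 341 CPM in heart, at 70.2, 178 and 38.0 CPM in MLN and at 97.1, 197 and 171 CPM in spleen, with all heart libraries above all others and an adjusted p of 0.12 in heart against MLN by edgeR. Pim1, a kinase gene that STAT5 induces, stood at 41.3, 127 and 65.2 CPM in heart, at 23.7, 27.4 and 49.4 CPM in MLN and at 43.3, 46.1 and 47.8 CPM in spleen, with overlap. Foxp3, whose values are given above, was lower in all heart libraries than in all MLN libraries, at a log2 change of -1.47 (interval -4.53 to 1.58, adjusted p 0.735).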

How the data were processed

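RNA-seq counts were used for 9 libraries, 3 per organ. The values the authors deposited are raw counts of reads by gene, without normalization. Per the submitters' processing notes, the build was mm10 and the tools named are HISAT2, HTSeq 0.6.0 and CASAVA 1.8.2. Not given in the sources used here are the strand setting, the annotation and the treatment of reads with several matches. Gene positions were taken from GENCODE vM21. All columns were used (0 left out), and the libraries of an organ differed from each other beyond sampling noise.

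Tests used edgeR 4.0.16 in R 4.3.3: filterByExpr (minimum count 10, minimum total 15), TMM scaling, 1 quasi-likelihood fit to all 9 libraries with a term per organ (6 residual degrees of freedom), two-sided tests and Benjamini-Hochberg adjustment over 16609 genes, called under 0.05. The median biological coefficient of variation was 102%. SEs were derived from the F statistic, and intervals are 95%. Ratios to pan-T genes used a count of 0.5 added to the member and exact permutation tests over libraries in SciPy 1.17.1. The procedure was tested on simulated data.

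The members, lists and rules were chosen with earlier results of these data known. The text names all members, called pathway genes, otherwise up to 3 genes per list with the lowest p in the joint test, 8 fixed genes (Il2, Il7r, Il15ra, Socs3, Stat3, Foxp3, Bcl2, Pim1) and the 3 genes most like each member. One result that this rule names is not reported here. Alternatives were RLE scaling, no filter, a filter of 10 CPM in 3 libraries, DESeq2 1.42.0, limma-voom (limma 3.58.1), a replicate block, fits to the 2 organs compared and each library left out in turn. Leaving out spleen 3, MLN 3 and heart 2 together was added after seeing the data. Counts from PCR-amplified cDNA without molecular identifiers are not independent molecules. Figures were drawn with matplotlib 3.10.9.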

Additional observations from a re-analysis of the deposited data

How the results depend on the processing

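In heart against spleen, 131 genes were called, against 210 with at least 10 CPM in 3 libraries, 1875 with DESeq2, 1141 with limma-voom, 292 with only the 2 organs in the fit, 3 without spleen 3, MLN 3 and heart 2 together, and 0 to 122 with 1 library left out. In heart against MLN, 230 were called, against 2211, 1332, 548 (2 organs), 4 and 0 to 249. In MLN against spleen, 0 were called (955 at an unadjusted p under 0.05), against 727 with DESeq2 and 3 with limma-voom. In the joint test, 296 were called, against 1558, 1214, 3 and 1 to 221. Members called were 0 except with DESeq2 (2 in heart against MLN, 1 in MLN against spleen, 2 in the joint test) and limma-voom (1 in heart against MLN, 1 in the joint test). Same-numbered libraries correlated at -0.21 to 0.22, and the other pairs across organs at -0.3 to 0.43. The labels do not say whether the numbers pair libraries. With 3 libraries per organ, some of which stand apart, these correlations cannot decide it. With the replicate block, 0 genes were called in heart against spleen, 0 in heart against MLN and 0 in the joint test, and 0 members.

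Il2ra and Socs2 changed sign in none of 17 alternatives per comparison. In heart against spleen, Jak1 turned to 0.027 with RLE and 0.027 with DESeq2, and Jak3 to 0.37 without the 3 libraries. Without these, heart against MLN was -0.33 for Jak3 and -0.51 for Stat5a, and MLN against spleen 0.69 for Jak3; Stat5b in heart against MLN was 0.06 with RLE and 0.06 with DESeq2. With 1 library left out, heart against spleen ran from -0.182 to 0.078 for Jak1, -2.65 to 2.58 for Jak3, -1.72 to 0.10 for Stat5a and -1.13 to 0.38 for Stat5b. Heart against MLN ran from -2.57 to 0.23 for Il2rb, -0.043 to 0.241 for Jak1, -0.64 to 2.14 for Jak3, -0.28 to 1.30 for Stat5a, -0.88 to 0.61 for Stat5b, -1.97 to 0.18 for Socs1 and -1.09 to 0.16 for Cish. MLN against spleen ran from -0.36 to 0.10 for Il2rg, -2.57 to 0.99 for Jak3 and -0.90 to 0.42 for Stat5b. The cause was not tested. The median of all genes in heart against MLN was 0.12, and 0.22 with RLE scaling. Jak3 gave no value at 10 CPM in 3 libraries. With 3 libraries per organ, the spread between them limits these values; depth was not varied.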

Other observations

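The remaining members were likewise set beside all genes of at least 10 CPM by their centred profiles over the 9 libraries, as a description with no test. Closest to Il2rg were Snx12 at 0.18, Dcaf13 at 0.18 and Fbxo6 at 0.19 (median gene 0.79), and closest to Stat5a were Sars at 0.27, Tubg1 at 0.29 and Cnot10 at 0.31 (median 1.08). Closest to Stat5b were AB124611 at 0.19, Ehmt2, a histone methyltransferase gene, at 0.25 and Necap2 at 0.25 (median 1.01). Socs1 was closest to Atpaf1 at 0.30, Hps5 at 0.30 and Aes at 0.32 (median 1.1), and Cish to Nop53 at 0.21, Trim27 at 0.21 and Glmp at 0.22 (median 0.90). Eef2, the translation elongation factor closest to Jak3, stood at 22.5, 304 and 43.8 CPM in heart, at 31.0, 53.5 and 95.2 CPM in MLN and at 31.8, 29.0 and 407.5 CPM in spleen, and Gata3, a transcription factor of Th2 cells and tissue Tregs, at 13.4, 152 and 34.0 CPM in heart, at 19.8, 24.7 and 45.6 CPM in MLN and at 26.7, 27.3 and 187 CPM in spleen. In both genes heart 2 and spleen 3 were the highest libraries, as for Jak3.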
